A study of Mus musculus with 8 samples.

Results

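The interferon response and interferon receptor genes are 48 genes chosen by symbol: the chains of the receptors for type I and type II interferon, sensors of viral nucleic acid, transcription factors of the response, and genes that interferon switches on. The choice was made with earlier results of these data known, so shares set against all genes below describe the list and test nothing. All 48 lie on the array, among 34650 gene names, with 65 probes. Tested were 56 of these probes, for 47 genes of 23638 tested in all. Oas3 was the member that could not be tested, since its probe was well above background on 0 of 8 arrays. Of the tested probes, 48 stood well above background in all 8 mice, and the other 8 passed because they did so in all 4 wildtype mice. No member probe passed through the α-Gal A(-/0) arrays alone.

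Measured was the prefrontal cortex of 8 male mice aged 20 to 24 weeks, 4 of them α-Gal A(-/0) and 4 wildtype, with 1 array per mouse. α-Gal A(-/0) mice carry a null mutation of Gla, the X-linked gene for α-galactosidase A, and are a model of Fabry disease, in which glycolipids accumulate. Both groups carry the strain label C57BL/6J, and the labels name no treatment. The study itself gives the background of the α-Gal A(-/0) mice as C57BL/6 and names only the wildtype mice C57BL/6J. Mice of each genotype came from an inbred colony of their own, so genotype and colony cannot be told apart, and whole tissue was measured, in which fewer cells of a type and less RNA per cell cannot be told apart. All levels below are log2 values of normalized Cyanine-3 intensity, listed in the order of mice 1 to 4 of a genotype, and each log2 fold change is the mean of the α-Gal A(-/0) mice minus that of the wildtype mice (n = 4 and 4).

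The arrays held 29943 to 36139 probes well above background in α-Gal A(-/0) mice, with mouse 2 lowest, and 35648 to 38240 in wildtype mice. The 8 markers of excitatory cortical neurons were bright in every mouse, with a mean log2 level of 11.73 to 12.04, and none of them passed the test. The 8 markers of striatum, the region beneath the cortex, differed more between mice: the median deviation from the mean of the 8 mice was 0.61, 0.83, 0.41 and −0.80 in α-Gal A(-/0) mice and −1.08, 0.28, −0.20 and −0.19 in wildtype mice. The single probe of Gla measured 17.13, 17.17, 17.18 and 17.13 in α-Gal A(-/0) mice and 17.01, 17.16, 17.06 and 17.13 in wildtype mice, and the log2 fold change was 0.06 with an adjusted p of 0.7. It was among the brightest probes of the array, with 60 of 34339 tested probes brighter, and was saturated on 0 of 8 arrays. Whether it reads other transcripts was not tested, and the sources used here do not give its place relative to the disrupted part of Gla, so the genotypes rest on the labels alone.

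Interferons are secreted signals of antiviral defense. Type I interferons bind a receptor of the chains IFNAR1 and IFNAR2, type II interferon one of IFNGR1 and IFNGR2, and both act through Janus kinases on STAT proteins. IRF9 and STAT2 are parts of the factor that binds the interferon-stimulated response element in the promoters of interferon-stimulated genes, and STAT pairs bind the gamma-activated sequence. In the brain, microglia and endothelial cells are known to respond strongly, and a low tonic interferon signal keeps many of these genes at a basal level.

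In 46 of 47 tested interferon genes the α-Gal A(-/0) mice had the lower mean level, and the wildtype mice differed widely among themselves. Of the 47 tested genes, each taken by its brightest probe, 4 passed an adjusted p of 0.05 in limma's test: Ifnar1, Dtx3l, Gbp7 and Irf5. All 4 were lower in α-Gal A(-/0) mice, against 0.601% of all tested genes that were called lower and 0.926% called in either direction. Counted by probe, 5 were called, the fifth being a second probe of Nlrx1, against 0.877% of all probes. A log2 fold change below 0 was found for 56.7% of all tested genes. The median of the members was −0.59, and −0.58 over those well above background on all 8 arrays, against −0.02 over all tested genes. An unadjusted p under 0.05 was reached by 35 member genes, against 7.36% of all genes called lower at that level. The 35 include Mx1, Rsad2, Ifi44 and Irf7, whose probes entered the test through the wildtype arrays alone. In 14 member genes every α-Gal A(-/0) value lay below every wildtype value, which held for 4.98% of all tested genes. By probe these were 18, against 4.76% of all probes, and in no member probe did every α-Gal A(-/0) value lie above. The 18 include the dimmer probes of Iigp1 and Isg15, which entered the test through the wildtype arrays alone. By the criterion of the study, which takes an unadjusted p up to 0.01 and a fold of 1.2 or more, 14 member probes of 14 genes differed, all lower, against 2.28% of all probes. In 11 of these genes the brightest probe met the criterion, against 2.3% of all genes, and in Gvin1, Nlrx1 and Isg15 it was a dimmer one.

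The count of called genes depended on single mice. It was 1 without α-Gal A(-/0) mouse 1 and without wildtype mouse 1, 2 or 3, and 2 without α-Gal A(-/0) mouse 2 or 3. By probes it was 2 without α-Gal A(-/0) mouse 1 or 3 or wildtype mouse 1 or 3, and 3 without α-Gal A(-/0) mouse 2 or wildtype mouse 2 or 4. Over all tested probes, calls fell from 301 to between 183 and 258 with 1 mouse left out. The count of member probes by the study's criterion went from 14 to 33 without wildtype mouse 2. The arrays lay in 2 rows of 1 slide, with α-Gal A(-/0) mouse 1 and wildtype mice 1, 2 and 3 in the upper row. The median log2 fold change was −0.72 in that row alone and −0.30 in the other, and no member was called in either, each of which holds a genotype with a single mouse.

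**Figure D1:**
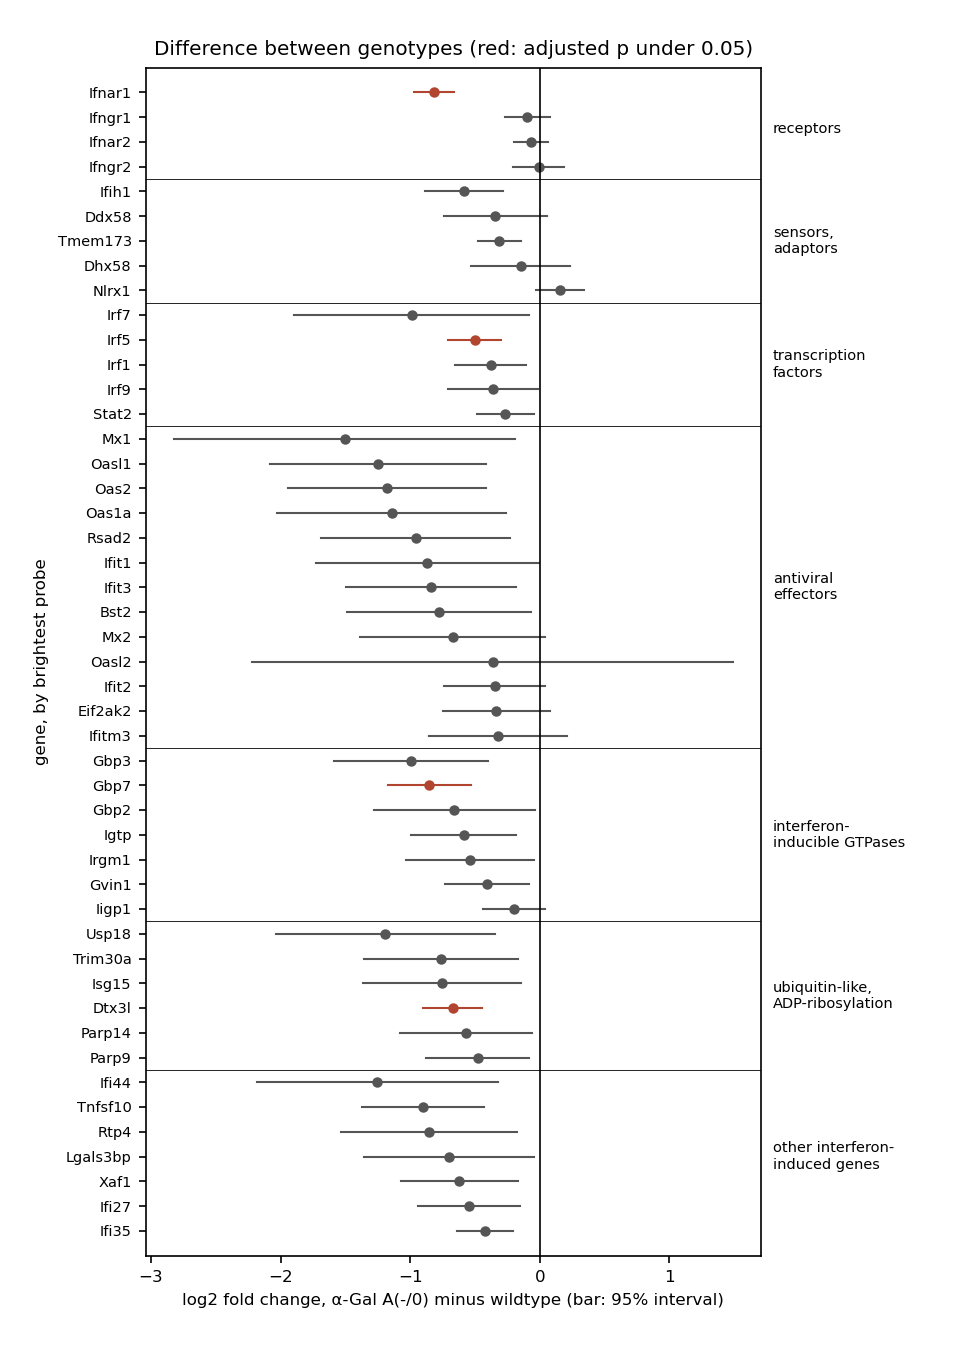
Log2 fold change (x axis, α-Gal A(-/0) minus wildtype) of the 47 tested interferon genes (y axis, by brightest probe and role), with 95% intervals from limma; red marks genes with an adjusted p under 0.05. All points but that of Nlrx1 lie below 0, and the called genes Ifnar1, Dtx3l, Gbp7 and Irf5 have some of the narrower intervals.

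Wildtype mice 1 and 3 stood highest, a pair picked out after the values were seen. For each gene the deviation of a mouse from the mean of all 8 was taken, and the median of it over the 47 genes was −0.37, −0.40, −0.33 and −0.12 in α-Gal A(-/0) mice and 0.57, −0.12, 0.67 and 0.05 in wildtype mice. These medians spanned 1.07, while over all tested genes they lay between −0.08 and 0.03. Wildtype mouse 1 lay above all 4 α-Gal A(-/0) mice in 43 of 47 genes and wildtype mouse 3 in 45, against 25.2% and 22.2% of all tested genes. Wildtype mouse 4 did so in 30 genes (24.1% of all genes) and wildtype mouse 2 in 17 (21.9%). Wildtype mouse 2 lay inside the range of the α-Gal A(-/0) mice in 29 genes, and its median deviation, −0.12, was that of α-Gal A(-/0) mouse 4. Wildtype mice 1 and 3 were the 2 highest of the 8 mice in 39 genes, against 5.47% of all genes, and mouse 3 exceeded mouse 1 in 38. The median SD of the member genes was 0.38 among wildtype mice and 0.19 among α-Gal A(-/0) mice, whereas over all tested genes it was 0.10 and 0.14. The SD was larger among wildtype mice in 36 member genes, against 34.8% of all tested genes.

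**Figure D2:**
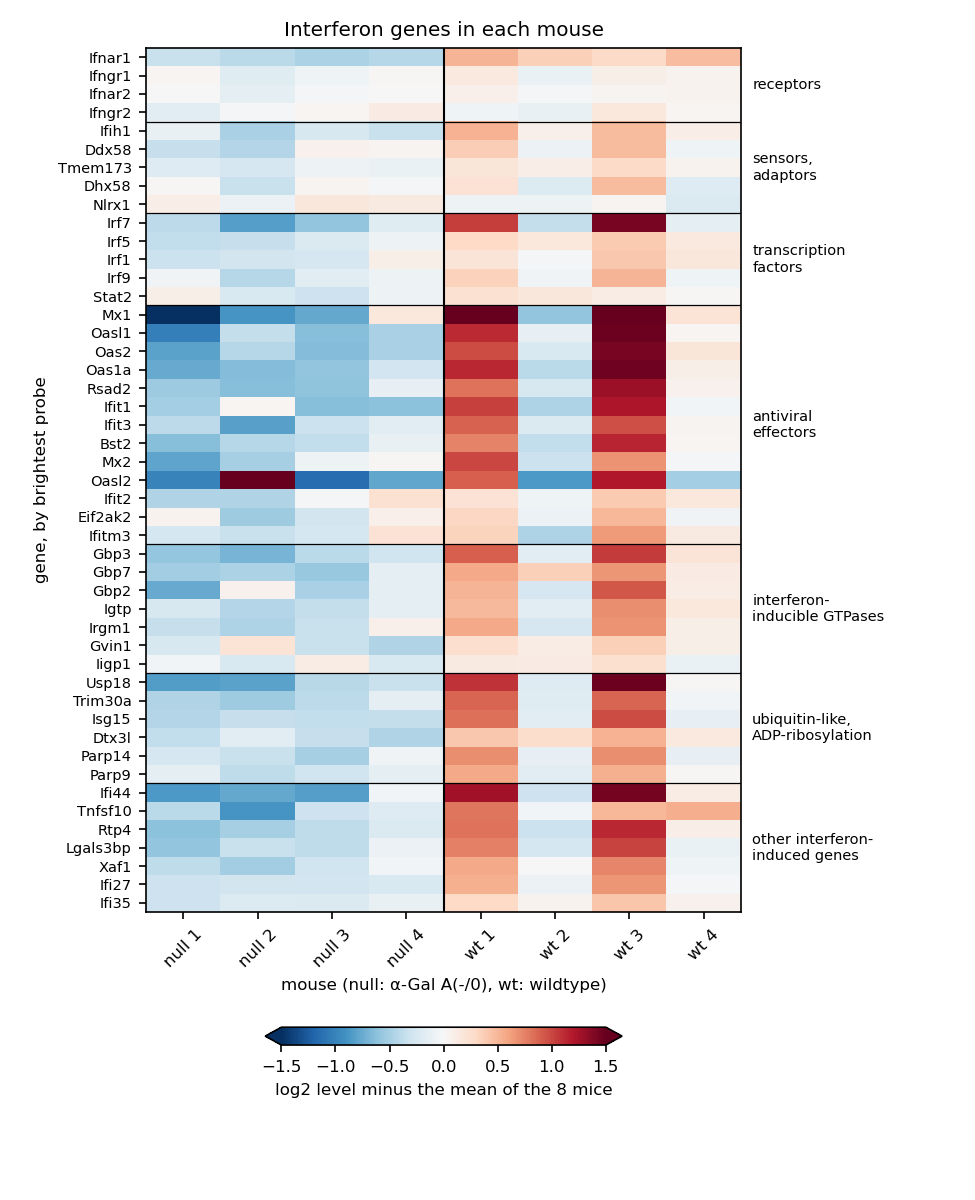
Deviation of the log2 level from the mean of the 8 mice (color) for each tested interferon gene (y axis) in each mouse (x axis; null, α-Gal A(-/0); wt, wildtype), with genes grouped by role. Wildtype mice 1 and 3 are the 2 highest mice in 39 of 47 genes, and the wildtype columns 2 and 4 are closer to the α-Gal A(-/0) columns.

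The promoters were searched for motifs of the response. Many members were chosen as genes that interferon switches on, whose promoters are known to hold such motifs, so the shares describe the list and test nothing. RefSeq promoter windows on GRCm38.p6, from 250 bases before to 50 bases after a gene's start, were at hand for 36 of the 48 members. The letters GAAANNGAAA of the interferon-stimulated response element stood on either strand in 18 of these 36 genes, against 3.99% of the 27025 genes with a window. The letters TTCNNNGAA of the gamma-activated sequence, a match of which can overlap one of the other motif, stood in 12 of 36, against 9.55% of genes. The members were not alone in this: of 55 other interferon pathway genes with a window, 18 (32.7%) held GAAANNGAAA and 14 (25.5%) held TTCNNNGAA. All 5 interferon-inducible GTPase genes with a window held GAAANNGAAA, and 8 of 11 antiviral effectors, 2 of 3 sensors, 2 of 3 ubiquitin-like or ADP-ribosylation genes and 1 of 5 transcription factors did. None of the 4 receptor genes and none of the 5 genes in the group of other interferon-induced genes held it. The median log2 fold change was −0.75 in the 17 tested genes with the motif (range −1.14 to −0.27). It was −0.46 in the 18 tested genes without it (range −1.25 to 0.16), and both are given as a description. Of the called genes, Gbp7 held the motif, and Ifnar1, Dtx3l and Irf5 did not. The stretches below, each upstream of the start, show how the motif stands in genes of several roles. They lie at chr19:34640773-34640825 (+ strand) for Ifit1, chr12:26456551-26456584 (− strand) for Rsad2, chr8:71537575-71537614 (− strand) for Bst2, chr3:142530271-142530304 (+ strand) for Gbp7, chr11:58199510-58199543 (+ strand) for Igtp, chr11:48871423-48871462 (− strand) for Irgm1 and chr4:156200863-156200908 (− strand) for Isg15. Each is written 5′ to 3′ on the strand of the gene, with motif bases in capitals, so that a match on the opposite strand reads TTTCNNTTTC, and matches that overlap form 1 longer run.
Ifit1: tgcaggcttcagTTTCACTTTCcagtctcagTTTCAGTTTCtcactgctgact
Rsad2: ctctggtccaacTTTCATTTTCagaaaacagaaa
Bst2: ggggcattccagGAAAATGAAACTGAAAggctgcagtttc
Gbp7: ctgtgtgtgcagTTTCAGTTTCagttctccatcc
Igtp: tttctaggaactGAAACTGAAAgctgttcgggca
Irgm1: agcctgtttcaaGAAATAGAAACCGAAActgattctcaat
Isg15: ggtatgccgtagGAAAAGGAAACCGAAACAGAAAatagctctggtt
Isg15 held the motif 3 times in 1 overlapping run that starts 78 bases before the gene's start, Bst2 and Irgm1 held 2 overlapping matches each, and Ifit1 held 2 apart from each other. A match of letters is not a measured binding site.

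Of the receptor genes, 1 of 4 was called, and it was Ifnar1, a chain of the type I interferon receptor. Its brightest probe (A_55_P2036337, chr16:91510673-91510732 on mm9) measured 10.96, 10.89, 10.82 and 10.87 in the α-Gal A(-/0) group and 11.81, 11.65, 11.58 and 11.76 in the wildtype group. The values within a genotype spanned at most 0.22, and the groups lay 0.62 apart at their nearest values. The log2 fold change was −0.81 (SE 0.07) with an adjusted p of 0.00085, which was the lowest adjusted p of all members, and it stayed below 0.05 with any 1 mouse left out. Within the slide rows it was −0.72 and −0.90. The other probes of Ifnar1 did not show this. Probe A_55_P2438722 (chr16:91503764-91505350) measured 5.98, 5.71, 6.04 and 5.87 in α-Gal A(-/0) mice, against 5.82, 6.03, 6.47 and 6.33 in wildtype mice, with a log2 fold change of −0.26 (95% interval −0.60 to 0.07, adjusted p = 0.53). Probe A_55_P2454784 (chr16:91506635-91506693) measured 7.21, 7.26, 7.44 and 7.44 in α-Gal A(-/0) mice and 7.31, 7.38, 7.37 and 7.25 in wildtype mice, with a log2 fold change of 0.01 (95% interval −0.16 to 0.18, adjusted p = 0.97). The groups overlapped at both. The fold change of the brightest probe differed from that of A_55_P2454784 by −0.83 (exact permutation test over 70 relabelings, two-sided, p = 0.0286, the smallest that 4 mice against 4 allow, and adjusted p = 0.114 over the 10 probe pairs of the members). The 3 probes lie at separate positions of the gene on chromosome 16, and which transcripts each one reads was not tested.

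Ifnar2, the other chain of that receptor, measured 10.58, 10.44, 10.57 and 10.59 in the α-Gal A(-/0) group and 10.65, 10.55, 10.61 and 10.63 in the wildtype group. The groups overlapped, and the log2 fold change was −0.07 (95% interval −0.20 to 0.07). Ifngr1, the ligand-binding chain of the type II receptor, measured 10.72, 10.52, 10.64 and 10.72 in α-Gal A(-/0) mice, against 10.84, 10.60, 10.79 and 10.75 in wildtype mice, with a log2 fold change of −0.10 (95% interval −0.27 to 0.08). Ifngr2, the other chain of the type II receptor, measured 11.15, 11.30, 11.34 and 11.43 in α-Gal A(-/0) mice and 11.25, 11.20, 11.47 and 11.33 in wildtype mice. Its log2 fold change was −0.01 (95% interval −0.20 to 0.19), with a sign that turned under 4 of 20 alternative settings. The 95% intervals of these 3 genes did not reach the log2 fold change of the brightest Ifnar1 probe.

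**Figure D3:**
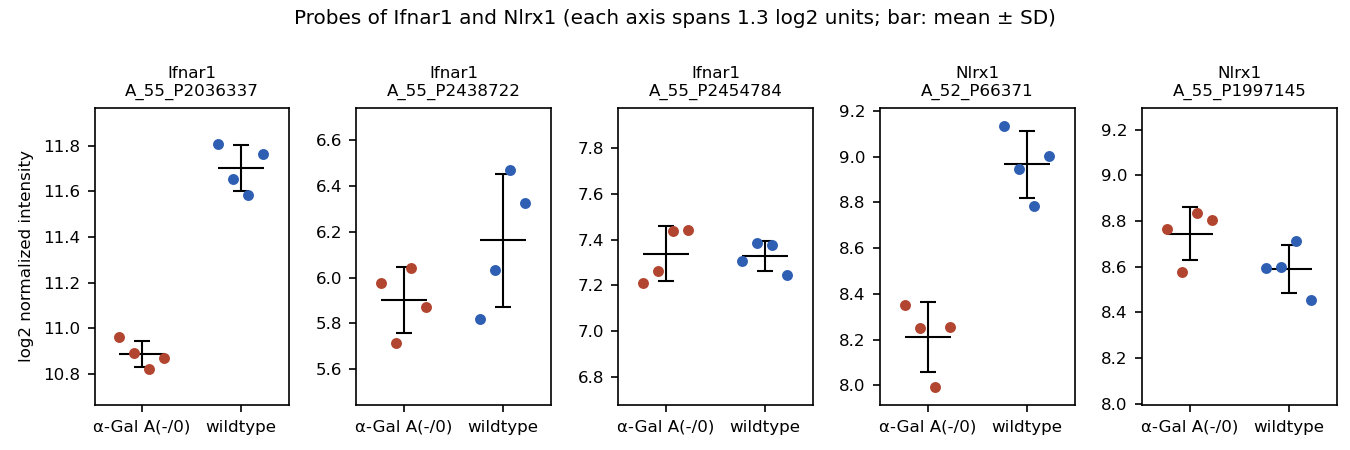
Log2 normalized intensity (y axis, spanning 1.3 units in each panel) in each mouse for the 3 tested probes of Ifnar1 and the 2 of Nlrx1; points are mice 1 to 4 from left to right, the line and bar the mean ± SD of 4 mice. The genotypes lie apart at the leftmost probe of each gene and overlap at the others.

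The sensors and adaptors had a median log2 fold change of −0.31, and none of the 5 was called by its brightest probe. Ifih1, a cytosolic sensor of long double-stranded RNA, measured 8.19, 7.81, 8.06 and 7.97 in the α-Gal A(-/0) group and 8.82, 8.37, 8.78 and 8.39 in the wildtype group. All its α-Gal A(-/0) values lay below the wildtype values, with a log2 fold change of −0.58 (adjusted p = 0.12). Tmem173, the adaptor STING that relays the sensing of cytosolic DNA, measured 9.01, 8.96, 9.14 and 9.11 in α-Gal A(-/0) mice, against 9.39, 9.31, 9.50 and 9.27 in wildtype mice. Here too the groups did not overlap, and the wildtype mice were close to each other, with a log2 fold change of −0.31 (adjusted p = 0.13). Ddx58, the viral RNA sensor RIG-I, measured 7.88, 7.78, 8.28 and 8.27 in α-Gal A(-/0) mice and 8.59, 8.13, 8.70 and 8.16 in wildtype mice, with overlap and a log2 fold change of −0.34. Dhx58, a related helicase that modulates both RNA sensors, had a log2 fold change of −0.15 at levels from 5.39 to 6.20, and was well above background in 3 of 4 α-Gal A(-/0) mice.

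Nlrx1, a mitochondrial protein known to restrain antiviral signaling, gave opposite values at its 2 tested probes. The probe A_52_P66371 (chr9:44061455-44061514 on mm9) measured 8.35, 8.25, 7.99 and 8.25 in the α-Gal A(-/0) group and 9.14, 8.95, 8.78 and 9.0 in the wildtype group. The groups lay apart, with a log2 fold change of −0.76 (SE 0.10, adjusted p = 0.013). The slightly brighter probe A_55_P1997145 (chr9:44076064-44076123) measured 8.76, 8.58, 8.84 and 8.81 in α-Gal A(-/0) mice, against 8.59, 8.60, 8.71 and 8.45 in wildtype mice. There the groups overlapped and the log2 fold change was 0.16 (95% interval −0.03 to 0.34, adjusted p = 0.5), the only value above 0 among the members' brightest probes. The fold changes of the 2 probes differed by 0.91 (exact permutation test, two-sided, p = 0.0286, adjusted p = 0.114 over 10 pairs). Unlike most members, neither probe of Nlrx1 was highest in wildtype mice 1 and 3 together.

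The transcription factors had a median log2 fold change of −0.38, with 1 of 5 called. Irf5, which acts downstream of Toll-like receptors (A_51_P346668, chr6:29486901-29486960 on mm9), measured 7.18, 7.21, 7.34 and 7.48 in α-Gal A(-/0) mice and 7.85, 7.72, 7.95 and 7.70 in wildtype mice. The groups did not overlap, and the log2 fold change was −0.50 (SE 0.09, adjusted p = 0.0497), just inside the threshold. It was called under 7 of 20 alternative settings. Irf7, the factor that amplifies type I interferon production, measured 5.26, 4.83, 5.07 and 5.48 in the α-Gal A(-/0) group and 6.70, 5.30, 7.08 and 5.52 in the wildtype group. Wildtype mice 1 and 3 were over 1 log2 unit above every other mouse, wildtype mice 2 and 4 were close to the α-Gal A(-/0) mice, and the log2 fold change of −0.99 did not pass (adjusted p = 0.38). It was well above background in 3 of 4 α-Gal A(-/0) mice.

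Irf1, an interferon-inducible activator, measured 9.89, 9.94, 9.96 and 10.31 in α-Gal A(-/0) mice, against 10.41, 10.19, 10.62 and 10.39 in wildtype mice. Wildtype mice 1, 3 and 4 lay above all α-Gal A(-/0) mice, and wildtype mouse 2 did not, with a log2 fold change of −0.38 (adjusted p = 0.28). Irf9, the DNA-binding subunit of the factor it forms with the STAT proteins, measured 10.30, 9.92, 10.18 and 10.27 in α-Gal A(-/0) mice and 10.695, 10.29, 10.86 and 10.28 in wildtype mice, with a log2 fold change of −0.36 (adjusted p = 0.4). Stat2, its partner, measured 11.03, 10.71, 10.62 and 10.86 in the α-Gal A(-/0) group and 11.17, 11.11, 11.06 and 10.95 in the wildtype group, with a log2 fold change of −0.27 (adjusted p = 0.34). In both genes the groups overlapped.

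The antiviral effectors had the lowest median log2 fold change of the role groups, −0.84, all 13 tested were below 0, and none was called. The oligoadenylate synthetases make the messenger that activates RNase L. Oas2 measured 6.42, 6.80, 6.58 and 6.74 in α-Gal A(-/0) mice, against 8.21, 6.99, 8.64 and 7.41 in wildtype mice. Oas1a measured 7.64, 7.74, 7.80 and 8.11 in α-Gal A(-/0) mice and 9.53, 7.99, 9.85 and 8.48 in wildtype mice. Oasl1, a relative known to restrain the translation of Irf7 in mice, measured 5.67, 6.34, 6.06 and 6.21 in the α-Gal A(-/0) group and 7.81, 6.57, 8.17 and 6.72 in the wildtype group. In all 3 genes wildtype mice 1 and 3 stood highest, and in Oas2 and Oasl1 wildtype mice 2 and 4 also lay above the highest α-Gal A(-/0) mouse. The log2 fold changes were −1.18, −1.14 and −1.25 (adjusted p = 0.23, 0.31 and 0.24). A dimmer probe of Oas1a measured 5.58, 5.63, 5.57 and 6.15 in α-Gal A(-/0) mice, against 7.07, 5.61, 7.34 and 6.28 in wildtype mice, with a log2 fold change of −0.84. Oasl2, an active relative, measured 7.86, 11.04, 7.72 and 8.08 in α-Gal A(-/0) mice and 9.75, 8.00, 10.05 and 8.35 in wildtype mice. α-Gal A(-/0) mouse 2 was the highest of all 8 mice, wildtype mice 3 and 1 came next, and the log2 fold change of −0.36 had a 95% interval of −2.22 to 1.49. The spot of that mouse was not marked uneven or saturated.

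Mx1, a gene of the dynamin-like GTPases, had a log2 fold change of −1.51 (95% interval −2.82 to −0.19, adjusted p = 0.36), which was −0.65 after normexp background correction. It measured 3.61, 4.25, 4.36 and 5.28 in the α-Gal A(-/0) group and 6.70, 4.54, 6.95 and 5.33 in the wildtype group. Its probe was well above background in 2 of 4 α-Gal A(-/0) mice, and wildtype mouse 2 lay inside their range. Mx2, a relative of Mx1, measured 6.40, 6.70, 7.12 and 7.22 in α-Gal A(-/0) mice, against 8.20, 6.87, 7.88 and 7.18 in wildtype mice, with a log2 fold change of −0.67. Rsad2, the antiviral enzyme viperin, measured 5.87, 5.77, 5.81 and 6.30 in α-Gal A(-/0) mice and 7.23, 6.17, 7.69 and 6.48 in wildtype mice, with a log2 fold change of −0.96, and was well above background in 3 of 4 α-Gal A(-/0) mice. In Mx2 and Rsad2 the groups overlapped, and wildtype mice 1 and 3 again stood highest. Bst2, the tetherin that holds budding virus at the cell surface, measured 8.50, 8.71, 8.77 and 9.03 in the α-Gal A(-/0) group and 9.89, 8.77, 10.28 and 9.17 in the wildtype group, with a log2 fold change of −0.77. Ifitm3, which blocks viral entry from endosomes, measured 9.49, 9.42, 9.49 and 9.96 in α-Gal A(-/0) mice, against 10.09, 9.29, 10.39 and 9.89 in wildtype mice, with a log2 fold change of −0.32. In Ifitm3 wildtype mouse 2 was the lowest of all 8 mice and α-Gal A(-/0) mouse 4 lay above the rest of its group.

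The Ifit genes encode proteins that bind foreign RNA. Ifit1 measured 6.48, 7.01, 6.35 and 6.37 in α-Gal A(-/0) mice and 8.01, 6.52, 8.20 and 6.95 in wildtype mice. Ifit2 measured 7.15, 7.15, 7.56 and 7.83 in the α-Gal A(-/0) group and 7.81, 7.53, 7.98 and 7.76 in the wildtype group. Ifit3 measured 9.64, 9.22, 9.71 and 9.88 in α-Gal A(-/0) mice, against 10.92, 9.82, 11.00 and 10.07 in wildtype mice. The groups overlapped in all 3, in Ifit1 through α-Gal A(-/0) mouse 2, which lay above wildtype mice 2 and 4, and in Ifit3 through α-Gal A(-/0) mouse 4. The log2 fold changes were −0.87, −0.35 and −0.84 (adjusted p = 0.42, 0.47 and 0.31). Eif2ak2, the RNA-activated kinase that halts translation, had a log2 fold change of −0.34 at levels from 6.27 to 7.31.

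**Figure D4:**
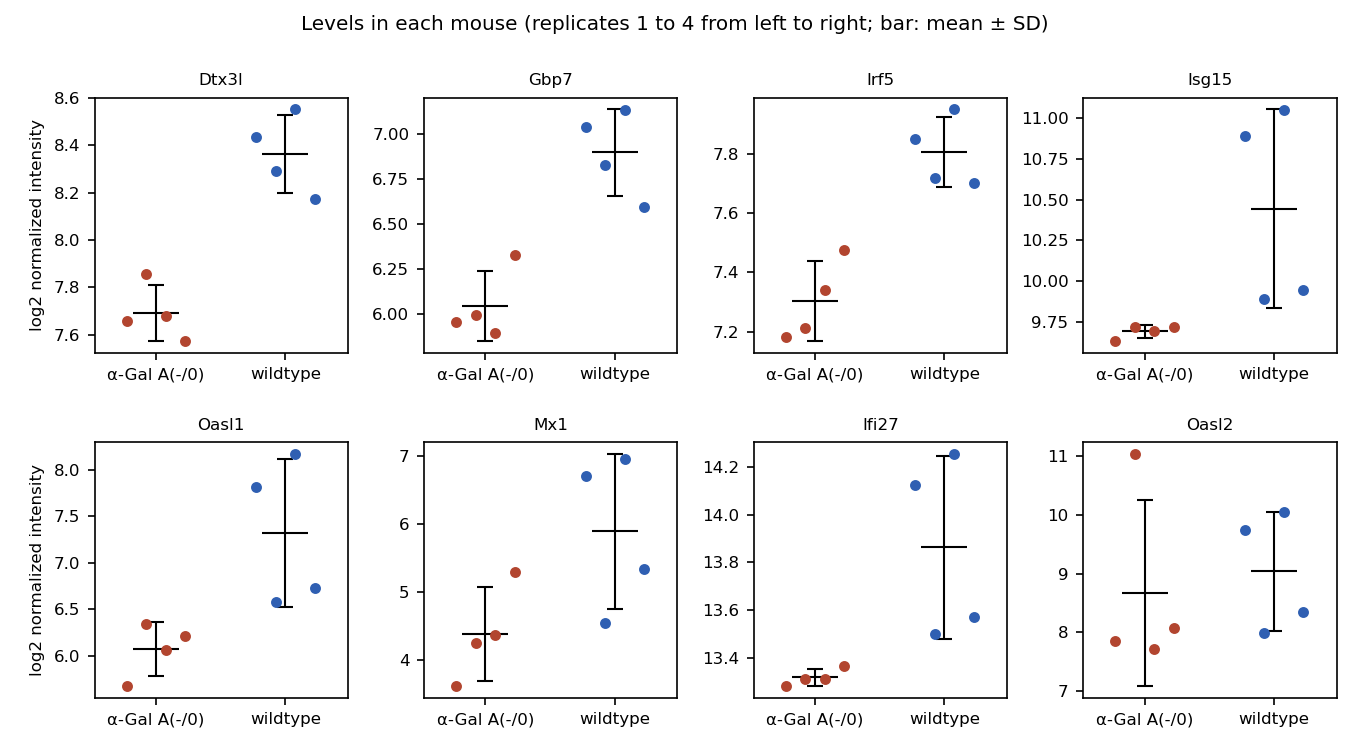
Log2 normalized intensity (y axis, scaled to each gene) of 8 interferon genes in each mouse; points are mice 1 to 4 from left to right, the line and bar the mean ± SD of 4 mice. Dtx3l, Gbp7 and Irf5 lie apart between genotypes, Isg15, Oasl1, Mx1 and Ifi27 are highest in wildtype mice 1 and 3, and in Oasl2 α-Gal A(-/0) mouse 2 reaches 11.04.

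The interferon-inducible GTPases, which attack the membranes around intracellular pathogens, had a median log2 fold change of −0.59, with 1 of 7 called. Gbp7, a guanylate-binding protein (A_51_P463846, chr3:142209379-142209438 on mm9), measured 5.96, 6.00, 5.90 and 6.33 in α-Gal A(-/0) mice and 7.04, 6.83, 7.13 and 6.59 in wildtype mice. Every wildtype mouse, mouse 2 included, lay above every α-Gal A(-/0) mouse, with a log2 fold change of −0.85 (SE 0.14, adjusted p = 0.036). Gbp7 was called under 8 of 20 alternative settings. Gbp3, a neighbor on chromosome 3, measured 8.58, 8.46, 8.75 and 8.86 in the α-Gal A(-/0) group and 10.06, 9.01, 10.20 and 9.36 in the wildtype group. The groups did not overlap, but wildtype mice 1 and 3 stood about 1 log2 unit above mouse 2, and the log2 fold change of −1.0 had an adjusted p of 0.19. Gbp2 measured 7.58, 8.39, 7.85 and 8.19 in α-Gal A(-/0) mice, against 8.85, 8.08, 9.27 and 8.45 in wildtype mice, with overlap and a log2 fold change of −0.66 (adjusted p = 0.4). Cross-reaction of the probes between the closely related Gbp genes was not tested.

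Gvin1, a very large inducible GTPase, measured 7.99, 8.45, 7.91 and 7.79 in α-Gal A(-/0) mice and 8.50, 8.35, 8.60 and 8.33 in wildtype mice at its brightest probe. At its second probe it measured 7.28, 6.98, 7.15 and 7.49 in the α-Gal A(-/0) group and 8.18, 7.70, 8.32 and 8.21 in the wildtype group. The second probe set the groups apart, with a log2 fold change of −0.87 (adjusted p = 0.052), just outside the threshold, while the brightest, with a log2 fold change of −0.41, did not, through α-Gal A(-/0) mouse 2. The difference between the 2 probes had an exact permutation p of 0.0857, two-sided, and an adjusted p of 0.143 over the same 10 pairs. Igtp, an immunity-related GTPase, measured 9.89, 9.69, 9.78 and 10.01 in α-Gal A(-/0) mice, against 10.63, 9.97, 10.83 and 10.30 in wildtype mice, with a log2 fold change of −0.59 (adjusted p = 0.26). Irgm1, a regulator of that family, measured 8.98, 8.87, 9.0 and 9.40 in α-Gal A(-/0) mice and 9.90, 9.08, 10.00 and 9.41 in wildtype mice, with a log2 fold change of −0.54, and −0.66 at a second probe. In Igtp and Irgm1 wildtype mouse 2 lay within the α-Gal A(-/0) range. Iigp1, another member of the family, measured 8.96, 8.77, 9.11 and 8.77 in the α-Gal A(-/0) group and 9.13, 9.12, 9.24 and 8.90 in the wildtype group, with a log2 fold change of −0.20. A dim second probe of Iigp1 gave −1.87, but was well above background in 1 of 4 α-Gal A(-/0) mice.

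The ubiquitin-like and ADP-ribosylation genes had a median log2 fold change of −0.71, with 1 of 6 called. Dtx3l, a ubiquitin ligase that works with Parp9 (A_55_P2059154, chr16:35926655-35926714 on mm9), measured 7.66, 7.86, 7.68 and 7.57 in α-Gal A(-/0) mice, against 8.44, 8.29, 8.55 and 8.17 in wildtype mice. The groups lay 0.31 apart at their nearest values, with a log2 fold change of −0.67 (SE 0.10, adjusted p = 0.021), and Dtx3l was called under 8 of 20 alternative settings. Parp9, which shares an interferon-responsive promoter with Dtx3l, measured 7.55, 7.31, 7.39 and 7.55 in α-Gal A(-/0) mice and 8.26, 7.52, 8.22 and 7.70 in wildtype mice, with a log2 fold change of −0.48 (adjusted p = 0.34). Parp14, a further ADP-ribosyltransferase of the same stretch of chromosome 16, measured 7.98, 7.90, 7.74 and 8.19 in the α-Gal A(-/0) group and 8.93, 8.11, 8.93 and 8.11 in the wildtype group, with a log2 fold change of −0.57 (adjusted p = 0.37). In Parp9 and Parp14 the groups overlapped, since wildtype mouse 2, and in Parp14 also mouse 4, lay among the α-Gal A(-/0) mice.

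Isg15, a ubiquitin-like protein that is attached to other proteins, measured 9.63, 9.72, 9.70 and 9.72 in α-Gal A(-/0) mice, against 10.89, 9.89, 11.05 and 9.94 in wildtype mice. The α-Gal A(-/0) mice spanned 0.09 and lay all below the wildtype mice, of which 1 and 3 stood about 1 log2 unit above 2 and 4. The log2 fold change was −0.75 (SE 0.27, adjusted p = 0.33), and −0.89 at a dimmer probe. Usp18, the protease that removes ISG15 and restrains receptor signaling, measured 6.41, 6.45, 6.84 and 6.91 in α-Gal A(-/0) mice and 8.34, 7.05, 8.72 and 7.26 in wildtype mice, again without overlap, with a log2 fold change of −1.19 (adjusted p = 0.27). Trim30a, a ubiquitin ligase of the tripartite motif family, measured 5.74, 5.66, 5.80 and 6.05 in the α-Gal A(-/0) group and 7.06, 6.01, 7.07 and 6.15 in the wildtype group, with a log2 fold change of −0.76 (adjusted p = 0.31). Wildtype mouse 2 was inside the α-Gal A(-/0) range for Trim30a.

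The other interferon-induced genes had a median log2 fold change of −0.70, and none of the 7 was called, though all 7 had an unadjusted p under 0.05. Ifi27, a small membrane protein, measured 13.28, 13.31, 13.31 and 13.37 in α-Gal A(-/0) mice, against 14.13, 13.50, 14.26 and 13.57 in wildtype mice. Its α-Gal A(-/0) values had the smallest SD of that group among all members, 0.04, and lay below all wildtype values, with a log2 fold change of −0.55 (adjusted p = 0.27). Ifi35, a partner of other interferon-induced proteins, measured 7.44, 7.54, 7.52 and 7.64 in α-Gal A(-/0) mice and 8.05, 7.80, 8.16 and 7.82 in wildtype mice. Tnfsf10, the death ligand TRAIL, measured 6.56, 6.07, 6.64 and 6.76 in the α-Gal A(-/0) group and 7.76, 6.92, 7.45 and 7.50 in the wildtype group. Neither gene showed overlap, with log2 fold changes of −0.42 and −0.90 (adjusted p = 0.12 and 0.13), and in Tnfsf10 wildtype mouse 4, not mouse 3, stood next to mouse 1.

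Ifi44, a cytoplasmic protein, measured 5.14, 5.23, 5.18 and 5.96 in α-Gal A(-/0) mice, against 7.26, 5.70, 7.44 and 6.12 in wildtype mice. Xaf1, a cofactor of apoptosis, measured 8.56, 8.42, 8.65 and 8.91 in α-Gal A(-/0) mice and 9.51, 8.95, 9.68 and 8.87 in wildtype mice. Rtp4, a chaperone of membrane receptors, measured 8.80, 8.91, 9.03 and 9.19 in the α-Gal A(-/0) group and 10.23, 9.09, 10.54 and 9.51 in the wildtype group. Overlap came from wildtype mouse 2 in Ifi44 and Rtp4 and from wildtype mouse 4 in Xaf1. The log2 fold changes were −1.25, −0.62 and −0.86 (adjusted p = 0.29, 0.28 and 0.32), and Ifi44 was well above background in 3 of 4 α-Gal A(-/0) mice. Lgals3bp, a secreted galectin-binding glycoprotein, measured 10.45, 10.71, 10.67 and 10.95 in α-Gal A(-/0) mice, against 11.80, 10.79, 12.05 and 10.94 in wildtype mice, with a log2 fold change of −0.70, and −0.52 at a second probe.

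Around these members, 66 other genes of the interferon pathway lie on the array and 55 were tested. None passed an adjusted p of 0.05, 13 had an unadjusted p under 0.05, 41 had a log2 fold change below 0, and the median was −0.14. Of the 10 interferon ligand genes on the array, Ifnb1, Ifng, Ifna4 and Ifne were well above background on 0 arrays, and the 5 tested had a median log2 fold change of −0.01. The 9 genes of JAK-STAT signaling had a median of −0.05 and the 25 tested interferon-induced genes outside the members one of −0.26. Irf8, a factor of the myeloid lineage, had the lowest p of them and measured 9.10, 8.83, 9.01 and 9.10 in α-Gal A(-/0) mice and 9.55, 9.42, 9.65 and 9.34 in wildtype mice. The groups did not overlap, with a log2 fold change of −0.48 (adjusted p = 0.068). Phf11d measured 6.63, 6.70, 6.79 and 7.07 in the α-Gal A(-/0) group and 8.21, 7.24, 8.86 and 7.60 in the wildtype group, with a log2 fold change of −1.18 (adjusted p = 0.21). Uba7, the enzyme that activates ISG15, measured 8.54, 8.54, 8.68 and 8.78 in α-Gal A(-/0) mice, against 9.29, 8.80, 9.51 and 9.08 in wildtype mice, with a log2 fold change of −0.54 (adjusted p = 0.21). In both, the order of the wildtype mice was that of most members, with mouse 3 highest and mouse 2 lowest. Gbp4 measured 6.71, 6.43, 7.03 and 7.55 in α-Gal A(-/0) mice and 8.09, 7.33, 8.25 and 8.04 in wildtype mice, with overlap and a log2 fold change of −1.0 (adjusted p = 0.22).

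Markers of other cell types were read on the same arrays, and their part in the result was not tested. Of 15 microglia markers, all tested, 12 had a log2 fold change below 0, 10 an unadjusted p under 0.05, and 2 were called. Csf1r, the receptor that keeps microglia alive, was called at its brightest probe (−0.44, adjusted p = 0.013). Its dimmer probes gave −0.36 (adjusted p = 0.065) and 0.59 (adjusted p = 0.65), the last with α-Gal A(-/0) mouse 2 at 12.12. Fcrls, Gpr34 and Siglech were above 0 at their brightest probes. Siglech was lower at its dimmer probes, −0.51 (adjusted p = 0.029) and −0.12 (adjusted p = 0.56), both without overlap. The median of the list was −0.29, and its mean log2 level was 11.67 to 11.81 in α-Gal A(-/0) mice and 11.85 to 12.01 in wildtype mice. By mouse, the median deviation of the microglia markers was −0.19, −0.17, −0.14 and −0.03 in α-Gal A(-/0) mice and 0.15, 0.09, 0.24 and −0.01 in wildtype mice. Leukocyte markers were tested for 7 of 12 genes, and 5 of those were below 0. Their median log2 fold change was −0.61, none was called, and 2 had an unadjusted p under 0.05. Those 2 were Ptprc, the CD45 antigen of leukocytes, and Cd52, a glycoprotein of the leukocyte surface. Cd52 measured 8.52, 8.76, 8.61 and 9.16 in the α-Gal A(-/0) group and 10.25, 9.30, 10.66 and 9.45 in the wildtype group. The groups did not overlap and wildtype mice 1 and 3 stood highest, and the difference was −1.16 on the log2 scale (adjusted p = 0.2). Ptprc differed by −0.61 (adjusted p = 0.32), also without overlap, and was well above background in 3 of 4 α-Gal A(-/0) mice. The order of wildtype mice seen in Cd52 did not hold across the list, with S100a9 at 8.39, 8.60, 7.33 and 8.91 in them. Cd3e and Nkg7 went the other way, with log2 fold changes of 0.11 and 0.08. The mean log2 level of the tested leukocyte markers was 7.60 to 8.05 in α-Gal A(-/0) mice and 8.10 to 8.30 in wildtype mice. Of the defining leukocyte markers, Ms4a1, Cd8a and Ncr1 were well above background on 0 arrays and Cd3d on 1. Endothelial markers, 12 tested, had a median log2 fold change of −0.12 with none called, and their mean log2 level was 9.88 to 10.17 in α-Gal A(-/0) mice and 9.93 to 10.18 in wildtype mice. All 8 astrocyte markers were below 0, 3 with an unadjusted p under 0.05 and none called, with a median log2 fold change of −0.14. Their mean log2 level was 12.19 to 12.33 in α-Gal A(-/0) mice and 12.40 to 12.42 in wildtype mice. Of 8 oligodendrocyte markers 1 was below 0, and 4 had an unadjusted p under 0.05, with none called and a median of 0.19. Choroid plexus markers, 7 tested, had a median of 0.08 with none called.

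**Figure D5:**
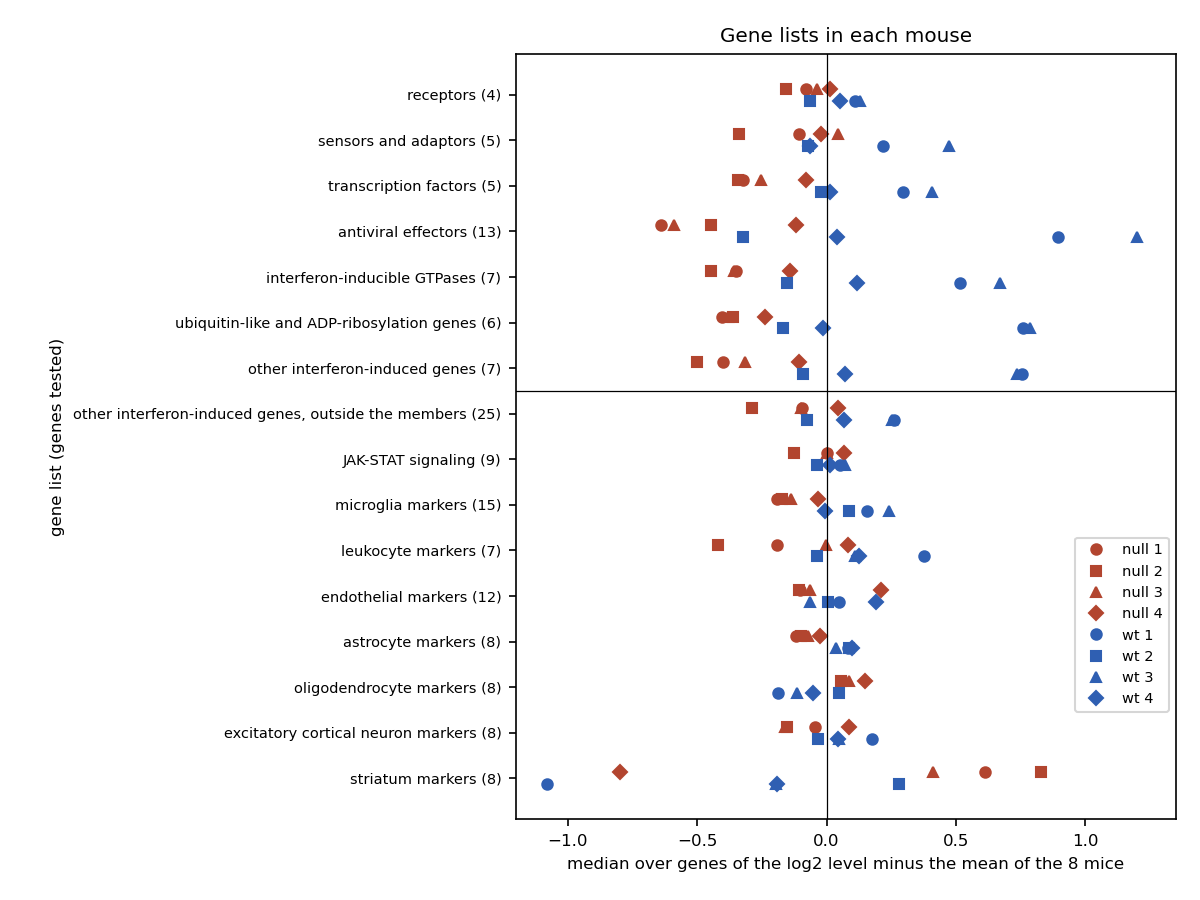
Median over the tested genes of a list (y axis, number tested in brackets) of the log2 level minus the mean of the 8 mice (x axis), with 1 symbol per mouse (red, α-Gal A(-/0); blue, wildtype). Wildtype mice 1 and 3 reach 0.89 and 1.2 in the antiviral effectors, 0.11 and 0.13 in the receptors and 0.15 and 0.24 in the microglia markers, and the striatum markers follow another order of mice.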

How the data were processed

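The members and the gene lists were chosen with earlier results of these data known. RNA of 8 prefrontal cortices was hybridized to 1-color Agilent SurePrint G3 arrays. The deposited intensity values are the processed signals that the authors made with Agilent Feature Extraction 10.7.3.1, corrected for gradients across the array and not normalized between arrays; positions of probes are on mm9, as the design gives them. A table of normalized values for the whole series was not used, since its columns do not follow their sample names.

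Here log2 intensities were quantile normalized over 8 arrays and spots of 1 probe averaged. Controls were dropped, and so were 81 probes that had a spot marked uneven. The test took 34339 of 55681 probes: for each, all 4 arrays of a genotype, or of both, were well above background. Genotypes were compared two-sided by limma 3.58.1 (lmFit, eBayes; R 4.3.3, statmod 1.5.0 for robust variances), p-values were adjusted by Benjamini-Hochberg across the tested probes, and differences were called at an adjusted p under 0.05. This replaced the study's test with unequal variances, which is given as an alternative ("the methods' t-test"). A gene was counted by its brightest probe. The fit was tested on simulated data. The difference between 2 probes of a gene, taken in each mouse, was compared between genotypes by exact permutation over 70 relabelings. Each array is a separate mouse, and 4 arrays per genotype limit the precision.

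Every member is named; all 8 values are given for members that were called, had an unadjusted p of at most 0.05, did not overlap between genotypes, had the widest spread or 1 mouse far from the rest, for all receptors, and for the lowest p of each role. The other pathway genes named are the 4 of lowest p. Promoter windows are those of RefSeq, matched by accession or symbol in Python 3.11.15 with pandas 2.3.3; figures were drawn with matplotlib 3.10.9 and numpy 2.4.6. Alternatives were a 75th percentile shift, normexp with an offset of 50, other signal filters, saturated probes left out, the methods' t-test, an intensity trend, a gene's mean over its probes, a replicate block, slide row as a block, each mouse left out and, chosen after seeing the data, each slide row alone. Some marker genes of other cell types are not reported here by name.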

Additional observations from a re-analysis of the deposited data

Results flagged for a closer look

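In 6 of 128 groups of 4 values (each tested probe and each list median, in each genotype), 1 mouse lay far from the other 3 of its genotype by Dixon's test; chance alone marks about 1 group in 20 at this level. All 6 were among the α-Gal A(-/0) mice, and 4 of them were mouse 4 lying above the rest: Ifitm3 at 9.96, the dimmer probe of Oas1a at 6.15, Ifi44 at 5.96 and Irf1 at 10.31. The other two were mouse 2, at 11.04 in Oasl2, above the rest, and at 10.44 in Ifnar2, below the rest. α-Gal A(-/0) mouse 4 also had the highest median deviation of its genotype over all members, −0.12. α-Gal A(-/0) mouse 2 had the fewest probes well above background, 29943.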

How the results depend on the processing

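The direction of the median log2 fold change held under all 20 alternatives, from −0.72 (upper slide row alone) to −0.30 (lower row alone), and between −0.71 and −0.46 with 1 mouse left out. The counts of calls did not hold. Against 4 called member genes and 5 called member probes, there were 1 and 2 without a filter on signal, and 1 and 1 with the methods' t-test. With slide row as a block there were 1 and 1, and an intensity trend with robust variances gave 8 called probes. Calls over all tested probes moved too, from 301 in the main fit to 223 without the filter and 92 with the methods' t-test. They were 144 with the slide row block and 424 with the intensity trend. With 1 mouse left out, 1 to 3 genes and 2 to 4 probes were called, 10 to 33 probes passed the study's criterion, and the span of the median deviations per mouse was 0.935 to 1.096. Against 14, the probes past the criterion were 9 with the methods' t-test, 8 with slide row as a block, 5 in the upper row alone and 3 in the lower row, where the span of the medians per mouse was 0.44. Against 0, 1 other pathway gene was called with normexp and 1 with the intensity trend, and 0 with any mouse left out.

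The mice were treated as unpaired, as in the study's own test. Residual correlations of arrays with the same replicate number were −0.09, 0.14, 0.01 and 0.15. They were not compared with those of arrays with different numbers, so they do not settle whether the numbers pair mice. With the replicate block, 2 member genes and 3 member probes were called, and 150 probes in all. Ifnar1 was called in 18 of 20 alternatives, the second Nlrx1 probe in 14 of 19, and Dtx3l, Gbp7 and Irf5 in 8, 8 and 7. Signs turned for Ifngr2 (0.0025 with normexp, 0.0235 in the lower slide row, and from −0.0512 to 0.0451 with 1 mouse left out), for Oasl2 (0.596) and Dhx58 (0.088) in the lower row, and for Nlrx1 as the mean of its probes (−0.30). The causes were not tested. Of the tested member probes, 8 of 56 were not well above background on every α-Gal A(-/0) array.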
